A study of Mus musculus with 160 samples.

Results

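The 9 genes described here mark B cells in mouse distal colon. They are the complement receptor Cr2, the surface proteins Ms4a1, Fcer2a and Cd22, the antigen receptor signalling chains Cd79a and Cd79b, the transcription factor Pax5, the kinase Blk and the intracellular protein Fcrla. They are 9 of 39179 genes counted in each library, and each was matched to 1 Ensembl identifier. They were chosen because their levels were lower in Nckap1l and Dock2 knockouts in these same libraries, so every value of those 2 genotype contrasts below is a description and carries no test. The other comparisons, which did not enter the choice, are tested.

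Distal colon RNA of knockout mice and their wild-type littermates was sequenced in 4 lines in a colitis experiment with dextran sulfate sodium (DSS), an agent that injures the colon epithelium when given in drinking water. The lines carried a homozygous knockout of Nckap1l (also called Hem1; 16 knockout and 15 wild-type libraries), Dock2 (18 and 24), Gpsm3 (20 and 20) or Dok3 (26 and 21), 160 libraries in all. The strain was C57BL6/J for Nckap1l, Dock2 and Gpsm3 and 129 for Dok3. DSS was given for 5 days, at 3% for Dock2 and Gpsm3 and 3.5% for Dok3 by the labels, which give no dose for Nckap1l. By the study's methods Nckap1l mice received slightly less than 3%, and Dok3 mice received 3% in a first round and 3.5% after it. Tissue was taken on day 10, or on day 12 in the Nckap1l line. Mice were 8 to 10 weeks old, came from heterozygous crosses of existing constitutive knockout models, and were housed with their littermates. The labels do not say which mice received DSS, so treated and untreated mice, both of which the study sequenced, are fitted together here, and any imbalance of treatment between genotypes cannot be told apart from genotype. The Nckap1l line held 4 female and 12 male knockouts and 8 female and 7 male wild-type mice, the Dock2 line 8 and 10 and 12 and 12, and both other lines were labelled male.

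B cells recognise antigen through a membrane immunoglobulin that signals through the Cd79a and Cd79b chains, and kinases of the Src family such as Blk act just below it. Cr2 binds complement fragments on antigen and lowers the threshold for signalling, and is also carried by follicular dendritic cells, while Cd22 restrains the signal. Pax5 holds cells in the B lineage, and most of these genes are switched off as B cells become plasma cells. In the colon, B cells gather in isolated lymphoid follicles and patches, where stromal cells make Cxcl13. Nckap1l and Dock2 act in blood cells on Rac and the actin cytoskeleton. In whole tissue, fewer B cells and less RNA per B cell cannot be told apart.

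Positions are those of GRCm38, which is the mm10 build named for the files. Cr2 (ENSMUSG00000026616) is at chr1:195136811-195176716 on the minus strand and Fcrla (ENSMUSG00000038421) at chr1:170917576-170927583 on the minus strand. Ms4a1 (ENSMUSG00000024673) is at chr19:11249675-11266241, Cd79b (ENSMUSG00000040592) at chr11:106311341-106314762, Fcer2a (ENSMUSG00000005540) at chr8:3681737-3694175, Pax5 (ENSMUSG00000014030) at chr4:44524757-44710487 and Blk (ENSMUSG00000014453) at chr14:63372836-63417037, all on the minus strand. Cd79a (ENSMUSG00000003379) at chr7:24897381-24902197 is the only one on the plus strand, and Cd22 (ENSMUSG00000030577) is at chr7:30865402-30880342 on the minus strand. All counts are over exons. The strand setting of the counting is not given in the sources used here, and Ms4a1 and Pax5 are each overlapped by a gene on the opposite strand (4930526L06Rik and Gm12462) while a gene on the same strand overlaps Fcrla (Gm2962), so their counts could include a neighbour's reads.

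Promoter windows, from 250 bases before to 50 bases after a RefSeq transcript start (GRCm38.p6), were found for 6 of the 9 genes in 8 windows. The windows of Cr2, of the receptor chain Cd79a and of Cd22 are shown because these genes stand for the complement receptor, the antigen receptor and its inhibitor. They are the windows chr1:195176670-195176969 (minus strand), chr7:24897247-24897546 (plus strand) and chr7:30878979-30879278 (minus strand), and the last starts inside the Cd22 gene as annotated by Ensembl. Capitals mark every match, on either strand, to 5 motifs of factors used in B cells: TCCC and GGGA with any 2 bases between (EBF-type), ATGCAAAT (octamer), GAGGAA (PU.1-type), TGGGAA (RBPJ-type) and CANNTG (E-box), and adjoining matches run together.
Cr2: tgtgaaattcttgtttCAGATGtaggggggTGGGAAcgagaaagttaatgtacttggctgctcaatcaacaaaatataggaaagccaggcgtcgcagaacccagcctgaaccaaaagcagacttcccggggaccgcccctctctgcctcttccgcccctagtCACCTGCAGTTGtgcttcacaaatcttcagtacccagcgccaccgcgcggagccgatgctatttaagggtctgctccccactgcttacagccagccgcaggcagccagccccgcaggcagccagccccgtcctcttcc
Cd79a: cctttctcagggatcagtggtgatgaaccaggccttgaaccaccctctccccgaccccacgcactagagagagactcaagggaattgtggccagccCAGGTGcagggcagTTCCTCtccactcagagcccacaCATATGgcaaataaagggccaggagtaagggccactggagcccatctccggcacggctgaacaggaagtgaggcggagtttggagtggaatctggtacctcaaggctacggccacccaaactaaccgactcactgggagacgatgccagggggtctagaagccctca
Cd22: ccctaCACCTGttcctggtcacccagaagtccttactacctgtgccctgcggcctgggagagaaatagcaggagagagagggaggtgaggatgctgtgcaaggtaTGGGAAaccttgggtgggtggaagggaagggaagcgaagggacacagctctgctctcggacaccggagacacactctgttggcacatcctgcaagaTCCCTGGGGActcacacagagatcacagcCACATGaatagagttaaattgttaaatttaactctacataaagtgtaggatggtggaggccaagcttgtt
The EBF-type motif, found in 0.904% of 32851 promoter windows of this length, had a match among the members' windows in Cd22 alone. The octamer (1.74% of all windows) had none. The PU.1-type motif (28.3%) matched in Cd79a and Fcrla, the RBPJ-type motif (25.6%) in Cr2, Cd22 and 2 of 3 Fcer2a windows, and the E-box (72.3%) in all 8. These are matches of letters in short windows and not binding sites.

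Before the results, the knocked-out gene was compared with its label. RNA of the targeted gene was still counted in knockouts, at a median of 14.8 CPM (counts scaled to the library's total, with TMM factors) against 27.2 CPM in wild type for Nckap1l and 22.5 against 34.2 CPM for Dock2, so its level was set against 8 genes of all leukocytes, as a log2 difference. In the Nckap1l line that relative level ran from -1.09 to 0.68 (median -0.65) in 16 libraries labelled knockout and from 0.01 to 0.88 (median 0.57) in wild type, and 3 libraries labelled knockout (replicates 7, 8 and 10) lay nearer the wild-type median. For Dock2 it ran from -0.01 to 1.02 (median 0.27) in knockout and from 0.02 to 1.18 (median 0.77) in wild type, with 2 libraries labelled knockout (replicates 16 and 18) and 5 labelled wild type (replicates 9, 13, 14, 15 and 24) nearer the other genotype. In the Gpsm3 line 3 and 1, and in the Dok3 line 11 and 6, lay nearer the other median, and 5 Dok3 libraries had sex-linked RNA against their male label. The genotype differences of the 9 genes and of the other B-cell and plasma cell genes are given with and without these libraries, while the tests of sex and of its interaction with genotype were not run without them. The check rests on RNA that the knockouts still make, so a library near the other median is not shown to be mislabelled. In Dock2 wild-type replicates 9, 13, 14, 15 and 24 the mean log2 CPM of neutrophil inflammation genes was 0.78, 7.21, 3.6, 3.09 and 1.73. The median of all Dock2 wild-type libraries was 0.62. In knockout replicates 16 and 18 the level was -1.05 and 1.73, beside a knockout median of 0.78. The part of inflammation in the check was not tested. In the Nckap1l and Dock2 lines the libraries labelled knockout that lay nearer wild type were among the knockouts highest in Cr2. Fits without them are thus not independent of the members' levels. Depth ran from 4344988 to 19993833 counts per library (median 15989626), so that 3 counts correspond to between 0.15 and 0.691 CPM.

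In wild-type colon the 9 genes were low to moderate in level and rose and fell together between mice. Per kilobase of exon (RPKM), over 80 wild-type libraries, the median was highest for Cd79b (5.18, range 0.255 to 35.0) and Cd79a (5.05, range 0.0835 to 32.6), followed by Cd22 (2.57), Cr2 (2.09), Fcer2a (2.06), Fcrla (1.45), Blk (1.34), Ms4a1 (1.24) and Pax5 (0.530). Each gene's range spanned all other genes' medians except that of Pax5, whose highest value was 3.37. Within lines, Cr2 followed every other member over the 80 wild-type libraries: Pearson's r of log2 CPM centred on each line ran from 0.93 (Fcer2a) to 0.97 (Pax5), Spearman's rho from 0.91 to 0.97, each with a permutation p of 1e-05, the smallest that 100000 permutations can give, and a Benjamini-Hochberg adjusted p of 1e-05 over 8 relations. Inside single lines r was between 0.86 and 0.99, and without the 2 libraries farthest from the median of Cr2 it was 0.92 to 0.97. All members share a library's depth and tissue sample, so this is a common rise and fall between pieces of tissue. They were also chosen as B-cell genes with earlier results of these data known, so the p-values are no independent support for it.

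Ms4a1, which is carried by B cells and lost in plasma cells, was set against the mean level of other cells' genes in the same 80 libraries. It followed other B-cell genes (25 genes; r = 0.98, rho = 0.98), T-cell genes (11 genes; r = 0.70, rho = 0.71) and follicular stroma genes such as Cxcl13 and Madcam1 (8 genes; r = 0.68, rho = 0.68), each with an adjusted permutation p of 1.6e-05 for r over 8 relations. Within the Nckap1l, Dock2, Gpsm3 and Dok3 lines r with T-cell genes was 0.87, 0.73, 0.43 and 0.63, and r with stroma genes 0.87, 0.70, 0.75 and 0.37. Plasma cell genes (r = 0.50, rho = 0.39, adjusted p = 1.6e-05 and 0.00078) and macrophage genes (r = 0.46, rho = 0.46, adjusted p = 1.6e-05 and 4e-05) followed less closely, although within lines r fell as low as 0.28 for both lists. Neutrophil inflammation genes had r = 0.35 (rho = 0.34, adjusted p = 0.0022 and 0.0028), with 0.67 in the Nckap1l line and 0.15 to 0.30 in the other 3. Germinal centre genes (r = -0.03, rho = 0.05, adjusted p = 0.81 and 0.72) and colon epithelium genes (r = 0.08, rho = 0.02, adjusted p = 0.52 and 0.86) did not pass the threshold of 0.05, and their r differed in sign between lines. Without the 2 libraries farthest from the median of Ms4a1, r was 0.98 for other B-cell genes, 0.68 for T-cell genes and 0.68 for stroma genes.

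Over all 160 libraries, with log2 CPM centred on each line and genotype, the genes most like Cr2 among 16413 genes were mostly known B-cell genes, of which those reported here are given. After an Ensembl gene with no symbol in the tables used here (r = 0.97), they were H2-Ob (0.96), a partner of antigen presentation in B cells, Fcmr (0.95), the receptor for IgM, a second unnamed gene (0.94), Tnfrsf13c (0.93), the receptor for the survival factor BAFF, Bank1 (0.93), H2-Eb2 (0.93), Fcrl1 (0.92) and the chemokine receptor Ccr6 (0.92). Ms4a1 had these genes among its 10 most alike too, led by an unnamed gene and Bank1 (both 0.96) and H2-Ob (0.96). The other 8 members stood at ranks 5 to 23 for Cr2 (r = 0.89 for Blk to 0.95 for Cd79a) and at ranks 1 to 25 for Ms4a1, where Cd79a (0.96) came first and Fcer2a (0.89) last.

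Ordered by the median, Cr2 stood at 23.4 CPM in Dok3 wild type, 21.4 in Dock2 wild type, 19.5 in Gpsm3 knockout, 18.3 in Dok3 knockout, 14.7 in Gpsm3 wild type, 13.3 in Nckap1l wild type, 4.0 in Dock2 knockout and 1.28 in Nckap1l knockout. The ranges of all neighbours in this order overlapped. Both knockouts by which the genes were chosen therefore stood lowest, the Dock2 wild type had the second highest median, and the Nckap1l wild type stood next above the 2 knockouts, below every other group.

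**Figure D1:**
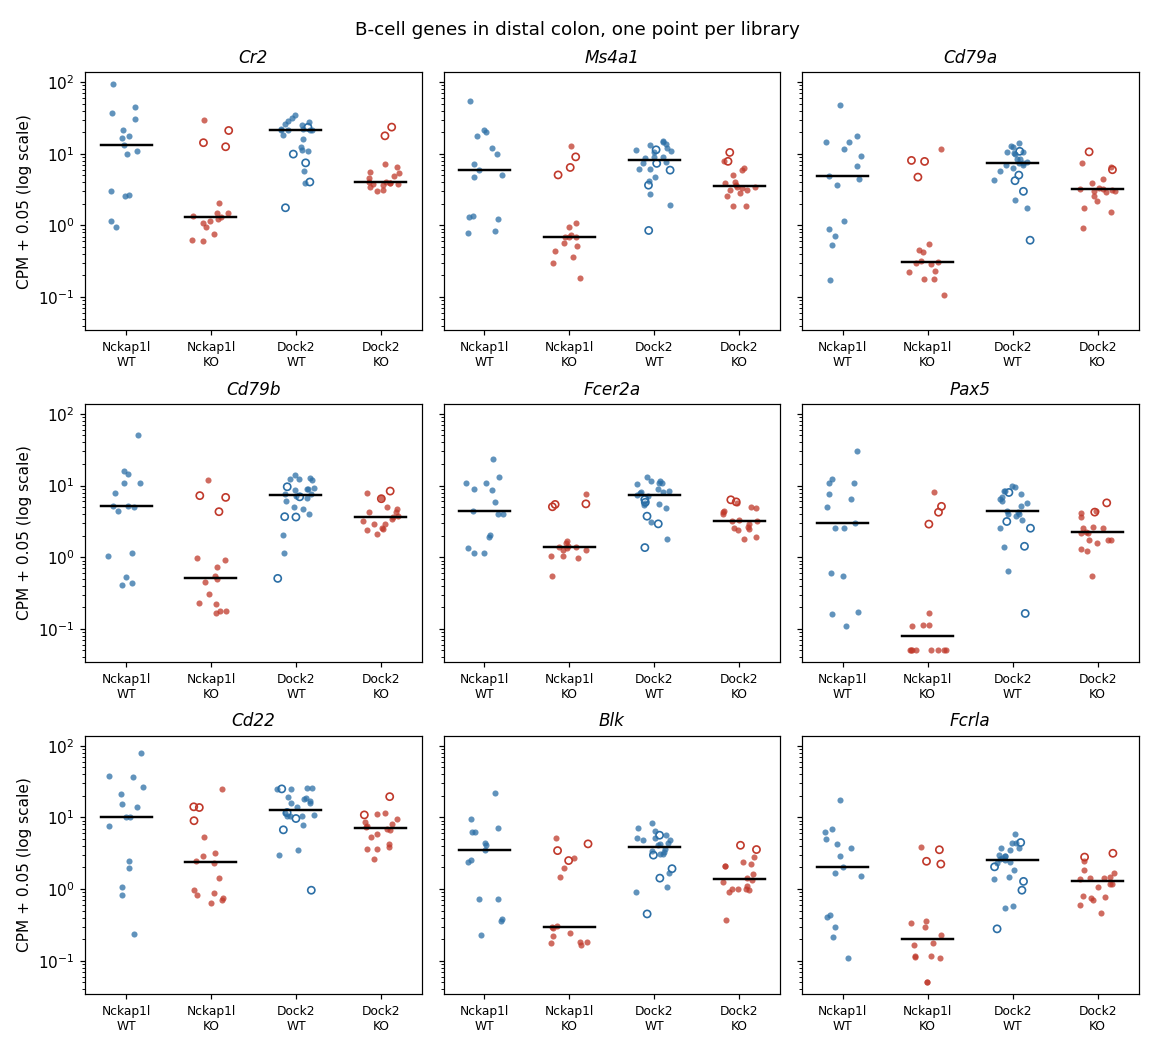
Level of each of the 9 genes in every library of the Nckap1l and Dock2 lines, in CPM plus 0.05 on a log scale, with wild type in blue, knockout in red and black bars at the medians. Open symbols are libraries whose knocked-out gene lay nearer the other genotype's median, and in the Nckap1l knockouts 4 libraries with Cr2 from 12.5 to 29.8 CPM stand apart from the other 12.

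In the Nckap1l line all 9 genes were lower in the knockout, 6 of them by over 4-fold. Cr2 was at 0.559 to 29.8 CPM (median 1.28) in 16 knockouts and 0.888 to 95.2 CPM (median 13.3) in 15 wild-type mice, and 13 of 16 knockouts lay below the wild-type median. Ms4a1 was at 0.132 to 12.9 CPM (median 0.640) against 0.721 to 55.3 CPM (median 5.88), and 10 of 16 knockouts lay below the lowest wild-type mouse. The ranges overlapped for both genes, through a few high knockouts and a few low wild-type mice. The fitted log2 fold change of knockout against wild type was -2.22 ± 0.85 (SE) for Cr2 and -2.58 ± 0.82 for Ms4a1.

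The antigen receptor chains had values of like size. Cd79a had a median of 0.259 CPM (0.0584 to 11.4) in knockout mice and of 4.79 CPM (0.122 to 47.4) in their littermates, a log2 fold change of -2.60 ± 0.95. Cd79b had medians of 0.469 and 5.07 CPM (-2.21 ± 0.88). Pax5, the lineage factor, had no count in 8 of 16 knockouts and in none of 15 wild-type libraries, with a highest knockout value of 8.06 CPM and a wild-type median of 2.99 CPM (-2.90 ± 1.12). Zero counts allow up to 3 counts, or at most 0.198 CPM in these libraries, and 3 of the wild-type libraries were themselves between 0.0608 and 0.12 CPM. Fcrla had medians of 0.151 and 2.0 CPM (-2.32 ± 0.85), and the kinase Blk 0.250 and 3.42 CPM (-1.72 ± 0.69).

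Nearest 0 was Fcer2a, the low-affinity IgE receptor, at -1.58 ± 0.50 (medians of 1.35 and 4.31 CPM), and Cd22 was at -1.91 ± 0.76 (2.33 and 10.2 CPM). By edgeR's quasi-likelihood test none of the 9 genes, and 0% of 17947 genes, had a Benjamini-Hochberg adjusted p under 0.05. At an unadjusted p under 0.05, 9 of 9 were lower, where 2.35% of all genes were. Adjusted calls numbered 1 with DESeq2 (Ms4a1) and 0 with limma-voom. The members were chosen on this contrast, so these counts say nothing further about them.

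The Nckap1l knockouts with high Cr2 shared a run of sample numbers, which also held a low knockout. The numbers in the sample names fall into 3 runs in this line, called blocks 1, 2 and 3 here, and what separates the runs is not given. In block 2, all male, Cr2 was at 21.1, 14.2, 29.8, 12.5 and 0.702 CPM in knockout replicates 7 to 11 and at 30.0, 36.7, 16.8 and 9.83 CPM in wild-type replicates 9 to 12. In block 3 it was at 1.1, 1.27, 1.29, 1.98 and 0.891 CPM in knockout replicates 12 to 16 and at 21.4, 17.4 and 45.5 CPM in wild-type replicates 13 to 15. The groups did not overlap in block 3 and overlapped in block 2, where only replicate 11 was low. In block 1, Cr2 was at 0.559 to 1.46 CPM (median 1.11) in 6 knockouts and 0.888 to 95.2 CPM (median 2.79) in 8 wild-type mice.

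Ms4a1 had the same pattern. In block 2 it was at 9.0, 6.38, 12.9, 5.01 and 0.894 CPM in the 5 knockouts and 17.8, 21.4, 9.94 and 4.98 CPM in the 4 wild-type mice. In block 3 it was at 0.390, 0.633, 0.674, 0.132 and 0.637 CPM against 11.9, 7.26 and 20.3 CPM, again with no overlap. In the 11 knockouts of blocks 1 and 3 Ms4a1 did not pass 1.02 CPM, while knockout replicates 7 to 10 were at 5.01 CPM or more. These 4 libraries include the 3 whose Nckap1l lay nearer the wild-type median, while that of replicate 9 (-0.38) did not.

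By block, the log2 fold changes in block 3 were -4.14 ± 0.34 for Cr2, -4.96 ± 0.53 for Ms4a1 and -5.34 ± 0.42 for Cd79a, and in block 2 they were -0.58, -0.99 and -0.86. In block 3 alone 7 of 9 genes were called lower, where 0.145% of all genes were, and 9 at an unadjusted p under 0.05 (2.37%). In block 1 the log2 fold changes of Cr2, Ms4a1 and Cd79a were -3.00, -3.10 and -3.84. There wild-type replicate 8 stood far above its group, with Cr2 at 95.2 CPM where the next highest wild-type mouse had 13.25 CPM. Ms4a1 (55.3 and 5.88 CPM) and Cd79a (47.4 and 4.42 CPM) had the same gap. By its block 1 medians (1.11 and 2.79 CPM, knockouts first) Cr2 differed less. The part of replicate 8 in the block 1 values was not tested. Without the 3 libraries, 7 members remained above the filter on low counts and had log2 fold changes between -1.98 (Fcer2a) and -3.37 (Cd79a), with 0 called by edgeR (0% of all genes) and 7 at an unadjusted p under 0.05 (2.67%). Without block 2, Cr2 was at -3.68 and Ms4a1 at -3.98.

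The low wild-type values lay in block 1, beside RNA of skin. The summed level of 5 skin genes (Krt5, Krt10, Krt14, Krt1 and Dsg3) was 2323 to 5200 CPM in wild-type replicates 1 to 7 of block 1 and 2869 to 6790 CPM in its 6 knockouts, against 3.69 to 43.6 CPM in the libraries of blocks 2 and 3, other than knockout replicate 8 (8336 CPM) and wild-type replicate 15 (822 CPM). All 5 wild-type libraries with Cr2 under 3 CPM were among these 7. Wild-type replicate 8, with 9.10 CPM of skin genes, had Cr2 at 95.2 CPM, Ms4a1 at 55.3 CPM and Cxcl13 at 161 CPM. The part of skin RNA in the B-cell values was not tested.

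**Figure D2:**
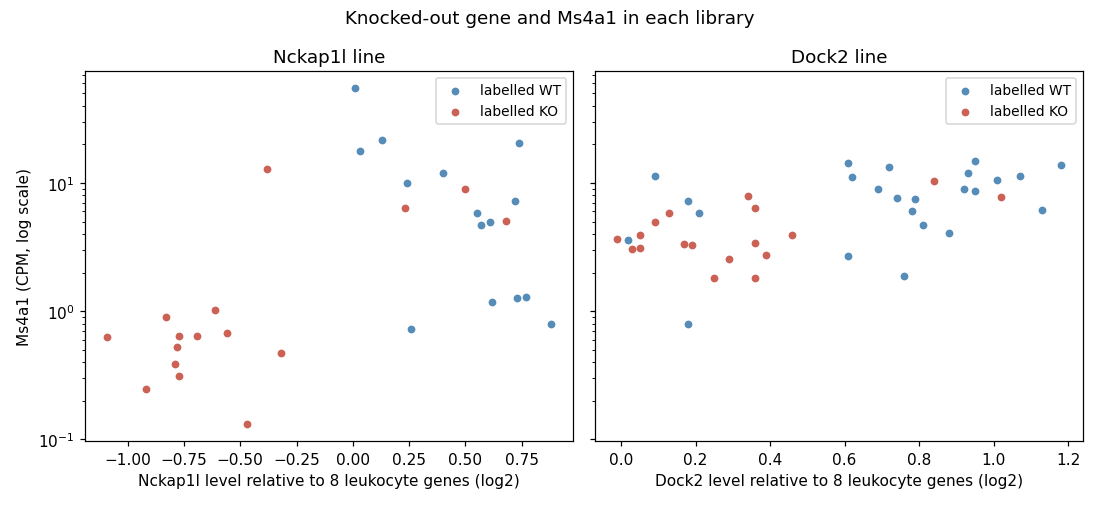
Ms4a1 level (CPM, log scale) against the level of the knocked-out gene relative to 8 leukocyte genes (log2), one point per library, for the Nckap1l line (left) and the Dock2 line (right), with labelled wild type in blue and labelled knockout in red. On the left, 3 red points lie within the blue range of the x axis and have Ms4a1 from 5.01 to 9.0 CPM.

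In the Dock2 line all 9 genes were again lower in the knockout, with fitted values nearer 0 than in the Nckap1l line, and Cr2 had the lowest value. Cr2 was at 2.93 to 23.5 CPM (median 4.0) in 18 knockouts and 1.71 to 34.5 CPM (median 21.4) in 24 wild-type mice. All but 1 of the knockouts lay below the wild-type median, and the ranges overlapped. The log2 fold change was -1.53 ± 0.28. Ms4a1 was at 1.82 to 10.4 CPM (median 3.53) against 0.799 to 14.8 CPM (median 8.19), a log2 fold change of -0.86 ± 0.25.

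The remaining members lay between -0.75 and -1.13. Cd79a had medians of 3.14 and 7.48 CPM in knockout and wild type (-0.93 ± 0.27), Cd79b 3.64 and 7.27 CPM (-0.75 ± 0.26), Pax5 2.20 and 4.30 CPM (-0.92 ± 0.30) and Cd22 6.98 and 12.7 CPM (-0.89 ± 0.27). Fcer2a, with medians of 3.19 and 7.27 CPM (-0.92 ± 0.22), was below the wild-type median in 18 of 18 knockouts. Blk had medians of 1.34 and 3.84 CPM (-1.13 ± 0.27) and Fcrla 1.25 and 2.53 CPM (-0.85 ± 0.27). Unlike in the Nckap1l line, every Dock2 knockout still had counts of all 9 genes, and the lowest Ms4a1 was 1.82 CPM.

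By edgeR's quasi-likelihood test 1 of 9 genes, Cr2, was called lower (0.0283% of 17648 genes), and 9 of 9 at an unadjusted p under 0.05 (2.75% of all genes). DESeq2 called 3 (Cr2, Fcer2a and Blk) and limma-voom 0. The 2 libraries labelled knockout whose Dock2 lay nearer the wild-type median, replicates 16 and 18, had the highest Cr2 of all knockouts (17.7 and 23.5 CPM), the other 16 lying at 2.93 to 7.26 CPM. Without the 7 libraries nearer the other median all 9 genes were called lower, where 0.377% of all genes were (3.48% at an unadjusted p under 0.05), with log2 fold changes from -1.04 ± 0.25 (Cd79b) to -2.11 for Cr2. The wild-type libraries left out (replicates 9, 13, 14, 15 and 24) had Cr2 at 1.71, 23.4, 9.84, 7.41 and 3.98 CPM. All but replicate 13 lay below the wild-type median of 21.4 CPM, and the knockouts left out were the 2 highest. This choice of libraries is thus not independent of the members' levels. As the members were chosen on this contrast, nothing further is read from the counts of called genes. The lowest Cr2 values of wild type were in replicates 7, 8, 9 and 24 (3.91, 5.71, 1.71 and 3.98 CPM), and the first 3 of these, with replicate 15, had 1472 to 3555 CPM of skin genes, against at most 31.7 CPM in the other wild-type libraries. Knockout replicate 13 had 11300 CPM of skin genes and Cr2 at 4.53 CPM. The part of skin RNA was not tested.

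**Figure D3:**
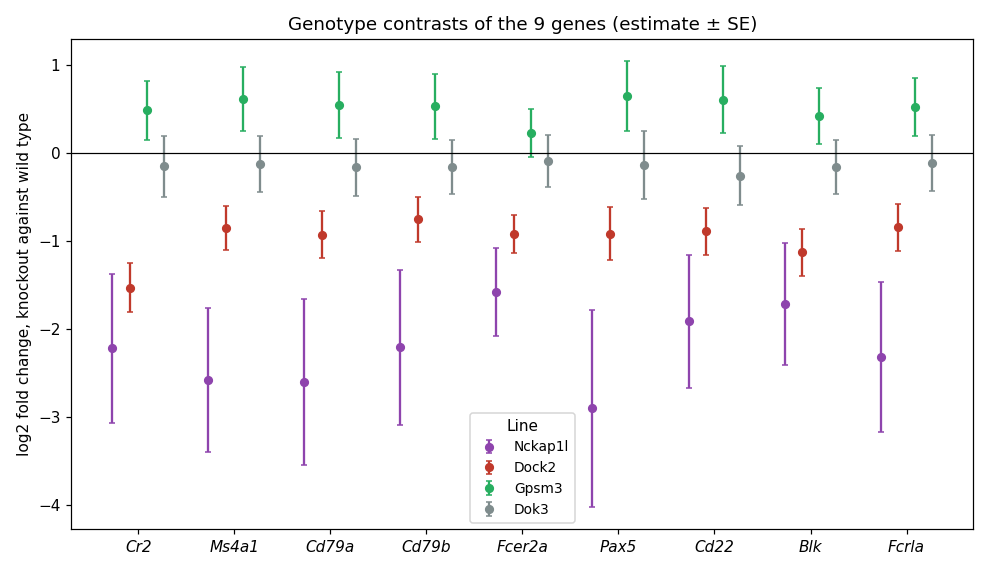
Log2 fold change of knockout against wild type for each of the 9 genes in the 4 lines, with bars of 1 SE, from the fit across all genes of a line. All 9 lie below 0 in the Nckap1l and Dock2 lines by which they were chosen, between 0.23 and 0.64 in the Gpsm3 line and between -0.26 and -0.09 in the Dok3 line.

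Set against Ms4a1 in the same library, Cr2 and Blk were lower in Dock2 knockouts and the other members had medians nearer the wild-type ratio. These ratios are built from the contrast by which the genes were chosen, so they are described without a test. The ratio of Cr2 to Ms4a1 in CPM was 0.590 to 2.28 (median 1.20) in 18 knockouts and 1.02 to 2.86 (median 2.13) in 24 wild-type mice, and 15 of 18 knockouts lay below the wild-type median. The same ratio for Cd79a had medians of 0.850 and 0.908, for Cd79b 0.962 and 0.877, for Fcer2a 0.836 and 0.899, for Pax5 0.551 and 0.577, for Cd22 1.73 and 1.69 and for Fcrla 0.320 and 0.293. For Blk the medians were 0.361 and 0.479, with 15 of 18 knockouts below the wild-type median. For Cd79b, higher by its median in knockouts, 5 of 18 lay below the wild-type median. For Cd79a, Fcer2a, Pax5, Cd22 and Fcrla it was 10, 11, 10, 8 and 7 of 18. Knockout replicates 16 and 18 had ratios of 2.28 and 2.26, and wild-type replicates 15 and 24, both nearer the knockout median of Dock2, had the lowest wild-type ratios, 1.02 and 1.11. Without the 7 libraries the ratio was 0.590 to 2.17 in 16 knockouts and 1.81 to 2.86 in 19 wild-type mice, with overlap between 1.81 and 2.17.

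**Figure D4:**
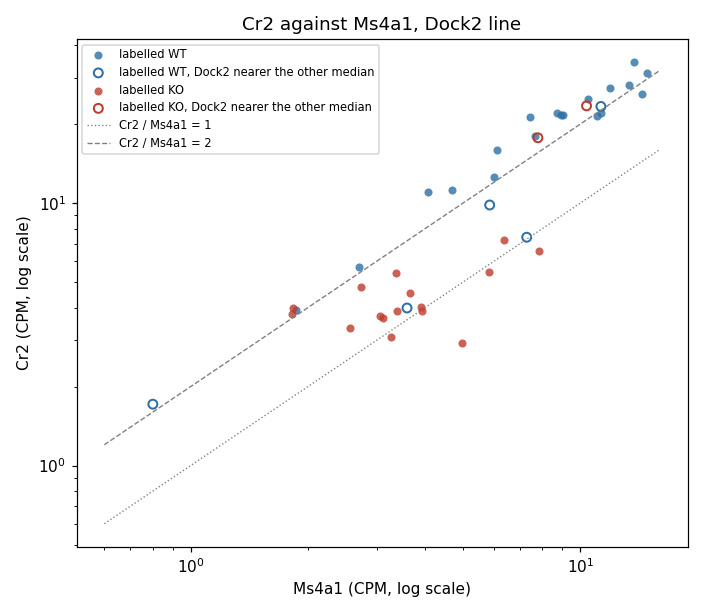
Cr2 against Ms4a1 in each library of the Dock2 line, both in CPM on log scales, with wild type in blue, knockout in red and open symbols for libraries whose Dock2 lay nearer the other genotype's median. Dotted and dashed lines mark ratios of 1 and 2, and most filled red points lie near the lower line while filled blue points lie near the upper one.

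In the Gpsm3 and Dok3 lines the ratio was tested, since those lines were not used to choose the genes. The mean log2 ratio of Cr2 to Ms4a1 was 1.00 ± 0.27 (SD, n = 20) in Gpsm3 knockouts and 1.05 ± 0.30 (n = 20) in wild type, a difference of -0.06 (permutation test with 100000 resamples, two-sided, p = 0.52, adjusted p = 0.54 over 2 tests). In the Dok3 line it was 1.02 ± 0.41 (n = 26) and 1.1 ± 0.40 (n = 21), a difference of -0.07 (permutation p = 0.54, adjusted p = 0.54).

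In the Gpsm3 line the 9 genes were higher in the knockout by less than the spread between mice. Cr2 was at 1.94 to 81.6 CPM (median 19.5) in 20 knockouts and 1.964 to 38.0 CPM (median 14.7) in 20 wild-type mice, with a log2 fold change of 0.48 ± 0.34 and a 95% interval of -0.17 to 1.14. Ms4a1 had medians of 8.89 and 6.49 CPM (0.61 ± 0.36, interval -0.09 to 1.32). Over the 9 genes the log2 fold change ran from 0.23 (Fcer2a) to 0.64 (Pax5), with edgeR adjusted p from 0.94 to 0.96, and 0 of 9 passed at an adjusted p (0% of 17560 genes called higher) or at an unadjusted p under 0.05 (3.35%). DESeq2 and limma-voom called 0 as well. In the same contrast the median log2 fold change was 0.94 for neutrophil inflammation genes, 0.33 for follicular stroma genes, 0.31 for macrophage genes and 0.27 for T-cell genes. With the mean level of the neutrophil inflammation genes as a covariate the 9 values were 0.08 to 0.21. The part of inflammation in the 9 values was not tested. Without the 4 libraries nearer the other median they were 0.31 to 0.73, with 0 called by edgeR (0.00568% of all genes called higher) and 1, Ms4a1, at an unadjusted p under 0.05 (5.03%).

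In the Dok3 line the genes did not pass the test either. Cr2 was at 2.42 to 98.9 CPM (median 18.3) in 26 knockouts and 3.34 to 84.1 CPM (median 23.4) in 21 wild-type mice, a log2 fold change of -0.15 ± 0.35 with an interval of -0.83 to 0.52. Ms4a1 stood at -0.13 ± 0.32 (-0.75 to 0.50) and Cd22 furthest from 0, at -0.26 ± 0.34 (-0.92 to 0.40). By edgeR 0 of 9 genes were called (0% of 17612 genes called lower) and 0 at an unadjusted p under 0.05 (1.14%), with every adjusted p at 1.00, and DESeq2 and limma-voom called 0. Without the 17 libraries nearer the other median the values were -0.33 to -0.06, with 0 called by edgeR (0.0458% of all genes called lower) and 0 at an unadjusted p under 0.05 (2.11%). The strain, day and dose of the lines differ, and the lines were not compared in a test.

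Sex was compared in the 2 lines with mice of both sexes, over both genotypes. In the Nckap1l line the male minus female log2 difference was 0.60 ± 0.90 for Cr2 and 0.74 ± 0.87 for Ms4a1, and 0 of 9 genes passed by edgeR at an adjusted p (0.178% of all genes called) or at an unadjusted p under 0.05 (15.7%). With the block as a covariate all 9 differences were negative, from -1.09 (Fcer2a) to -2.63 (Pax5), with 0 of 9 called (0.0669% of all genes) and 5 at an unadjusted p under 0.05 (7.78%) by edgeR. Of the Dock2 mice, males had a Cr2 difference from females of -0.67 ± 0.27 (log2), with an adjusted p of 0.10 by edgeR's test and the smallest unadjusted p of the members. There 0 of 9 genes passed where 9.75% of all genes did, and Cr2 was 1 of 9 at an unadjusted p under 0.05 (25.6%). DESeq2 and limma-voom called 0 of 9 in both lines.

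The genotype effect was also tested for a difference between the sexes. In the Nckap1l line Cr2 was at 0.559 to 1.98 CPM (median 0.877) in 4 female knockouts and 2.51 to 95.2 CPM (median 12.0) in 8 female wild-type mice, which did not overlap, and at 0.702 to 29.8 CPM (median 1.35) and 0.888 to 36.7 CPM (median 16.8) in males, which did. The interaction (male minus female genotype effect) was 3.25 ± 1.53 for Cr2, 3.27 ± 1.53 for Ms4a1 and 6.42 ± 2.75 for Pax5, and these 3 had an unadjusted p under 0.05 (3.29% of all genes), with 0 called by edgeR (0%), DESeq2 and limma-voom. Block 2, which was all male, held the 4 knockouts with high B-cell genes, and these enter this value. In the knockouts of blocks 1 and 3, which include both sexes, Cr2 was at 0.559 to 1.98 CPM. A difference between the sexes can therefore not be fully told apart from one between blocks. For Dock2 the interaction was -0.43 ± 0.55 for Cr2 and between 0.39 and 0.60 for the other 8, with 0 called (0.198% of all genes) and 0 at an unadjusted p under 0.05 (4.48%) by edgeR, and 0 called by the other tools.

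Other genes of B cells were lower in both chosen contrasts too, which are again described without a test. Of 25 other B-cell genes in the files, 23 passed the filter in the Nckap1l line, with a median log2 fold change of -1.33 beside 0.01 for all genes, and 22 were negative. At an unadjusted p under 0.05, 19 were lower (2.35% of all genes) and 0 higher, with 0 called by edgeR. Without the 3 libraries 21 passed the filter, with a median of -1.30, 17 lower at an unadjusted p under 0.05 (2.67%) and 0 called. Among the 3 furthest from 0 were Pou2af1, a coactivator of octamer factors (-3.04 ± 1.06), and Fcmr (-2.52 ± 1.07). For Dock2 the median of 23 genes was -0.44 beside 0.00, with 23 negative, 17 lower at an unadjusted p under 0.05 (2.75% of all genes) and 0 called by edgeR (0.0283%). Without the 7 libraries nearer the other median 9 of 23 were called lower (0.377%) and 19 at an unadjusted p under 0.05 (3.48%), with a median of -0.655 and 22 negative. With all libraries Tnfrsf13c (-1.16 ± 0.29), Fcrl1 (-0.95 ± 0.28) and Fcmr (-0.90 ± 0.26) were the furthest from 0.

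Plasma cell genes were low in both lines too. For Nckap1l, 2 of 5 were lower at an unadjusted p under 0.05 (2.35% of all genes) with a median of -0.90, and without the 3 libraries 3 of 5 (2.67%) with a median of -1.09. Over all libraries Igha, the heavy chain of IgA, had medians of 3.60 and 38.4 CPM in knockout and wild-type mice (-2.53 ± 1.40), Jchain, which joins IgA into dimers, -2.50 ± 1.25 and Irf4 -0.90 ± 0.39. For Dock2, 5 of 6 were lower at an unadjusted p under 0.05 (2.75%) with a median of -1.11, and Irf4, a factor needed for plasma cells and also used by other lymphocytes, was 1 called gene (-0.79 ± 0.16, with 0.0283% of all genes called lower by edgeR). Without the 7 libraries 4 of 6 were called lower (0.377%) and 5 at an unadjusted p under 0.05 (3.48%), with a median of -1.497. Over all Dock2 libraries Igha had medians of 29.2 and 139 CPM (-2.10 ± 0.56), Jchain was at -1.80 ± 0.50 and Mzb1 at -1.43 ± 0.35.

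Lists named for other cells of the follicle and the mucosa had medians between -0.20 and 0.09 in both lines. The germinal centre list did not follow Ms4a1 in wild type (r = -0.03). It summed to 31.3 to 97.9 CPM in the Nckap1l knockouts of blocks 1 and 3, where Ms4a1 did not pass 1.02 CPM. In all wild-type libraries it summed to 25.6 to 108 CPM. The list is therefore not read as a measure of germinal centre B cells. In the Nckap1l line germinal centre genes had a median of -0.09 (5 genes, with Gcsam at -0.13 and Mybl1 at -0.09), follicular stroma genes -0.03 (8 genes, furthest Ccl19 at 0.45 ± 0.42, with Coch at 0.38 and Cxcl13 at -0.30) and T-cell genes 0.02 (11 genes, furthest Cd28 at -0.73 ± 0.44, with Cd2 at -0.70 and Cd8a at 0.64). None of these 24 genes passed at an unadjusted p under 0.05. Cd3e, which marks T cells, had medians of 3.05 and 1.99 CPM in the 2 genotypes. Macrophage genes had a median of 0.05 (furthest Adgre1 at 0.21, Itgax at -0.19 and Cd68 at 0.13) and colon epithelium genes -0.07 (furthest Car1 at -0.52, Muc2 at 0.40 and Aqp8 at 0.24). Skin genes had a median of 0.85, neutrophil inflammation genes -0.23 and striated muscle genes 0.36.

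In the Dock2 line the medians were -0.01 for 6 germinal centre genes (Rgs13 0.38, S1pr2 -0.08), -0.14 for 8 stroma genes (Tnfsf11 -0.28, Mfge8 -0.27, Ccl19 -0.19), -0.20 for 11 T-cell genes (Cd28 -0.59, Cd2 -0.53, Cd247 -0.33), -0.03 for macrophage genes (Itgax 0.23, Cd14 -0.08, Csf1r -0.05) and 0.09 for colon epithelium genes (Car1 -0.23, Krt20 0.18, Muc2 0.17). At an unadjusted p under 0.05, 3 T-cell genes (Cd28, Cd2 and Cd247) and 1 stroma gene (Mfge8) had values below 0 and 1 macrophage gene (Itgax) a value above 0, and edgeR called none. Of the 11 T-cell genes 10 were below 0, as were 6 of 8 stroma genes, 4 of 6 germinal centre genes, 4 of 6 macrophage genes and 1 of 8 epithelium genes. Skin, neutrophil inflammation and striated muscle genes had medians of -0.90, -0.52 and -1.74, and the neutrophil median turned to 1.29 without the 7 libraries nearer the other median.

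**Figure D5:**
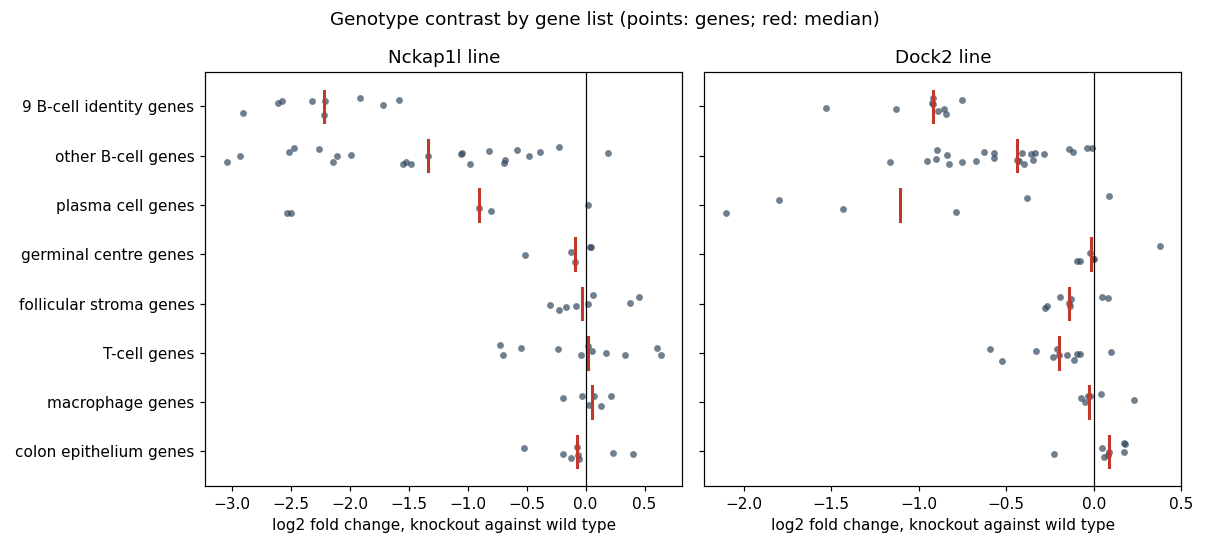
Log2 fold change of knockout against wild type for each gene of 8 lists in the Nckap1l line (left) and the Dock2 line (right), with red bars at the list medians. The 9 members and the other B-cell and plasma cell genes lie left of 0 for the most part, while the medians of germinal centre, stroma, T-cell, macrophage and epithelium genes lie between -0.20 and 0.09. In the Dock2 line 10 of 11 T-cell genes lie left of 0.

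In the Gpsm3 line 23 other B-cell genes had a median of 0.51, none was called by edgeR and 6 were higher at an unadjusted p under 0.05 (3.35% of all genes), the furthest being Pou2f2 (0.74 ± 0.28), Ighm (0.71 ± 0.30) and Pou2af1 (0.63 ± 0.35), with adjusted p of 0.94 by edgeR. Without the 4 libraries nearer the other median 15 of 24 were higher at an unadjusted p under 0.05 (5.03%), with a median of 0.615 and 0 called (0.00568%). In the Dok3 line 25 had a median of -0.12 with 0 called by edgeR, the furthest being Vpreb3 (-0.27 ± 0.33), Siglecg (-0.23 ± 0.30) and Fcrl1 (-0.21 ± 0.32), and none had an unadjusted p under 0.05 (1.14% of all genes called lower). Without the 17 libraries nearer the other median the median of the 25 was -0.208, with 0 called by edgeR (0.0458%) and 0 lower at an unadjusted p under 0.05 (2.11%).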

How the data were processed

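Distal colon RNA of 160 mice was ribosome-depleted and sequenced with a stranded kit. The deposited values are raw counts per gene and library, which the authors made with STAR and featureCounts (Subread) on mm10 (versions not given in the sources used here), without normalization or pooling. Of 39179 Ensembl genes, 37607 (95.99%) matched a symbol, and they held 99.67% of counts. Group, sex, strain and dose were taken from the labels. Each line was fitted on its own with edgeR 4.0.16 (R 4.3.3; TMM, filterByExpr, quasi-likelihood test, sex as a covariate where both sexes occur), with Benjamini-Hochberg adjustment over all genes and a threshold of 0.05. CPM values use TMM over all libraries. Log2 CPM used a prior count of 2. Correlations and ratios used 100000 permutations (numpy 2.4.6), two-sided. The SE of a fold change is its absolute log2 value divided by the square root of the F statistic of the quasi-likelihood test. The 95% intervals are normal intervals from that SE. They give the uncertainty of the estimated fold change and not the range of single libraries. Replicate libraries are separate mice by the study's methods. The fit was tested on simulated counts. DESeq2 1.42.0, limma-voom 3.58.1, other filters, size factors, covariates, blocks and samples were alternatives.

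The members and gene lists were chosen with earlier results of these data known, and the 8 leukocyte genes (Ptprc, Cd53, Laptm5, Coro1a, Rac2, Was, Arhgdib and Itgb2), and the alternatives that leave libraries out, after the values were seen. The 9 members, the knocked-out genes, the 3 listed genes furthest from 0 in each list, any listed gene called and the 10 genes most like Cr2 and Ms4a1 were named by rule. Others named were chosen after their values were seen. Some genes that the rule names are not reported here.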

Additional observations from a re-analysis of the deposited data

Results flagged for a closer look

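Each member was searched for 1 library far from the others in groups of 4 to 10 libraries of one line, genotype and sex. The members rise and fall together, so the 45 comparisons are not independent. A library stood out in 9 of these comparisons. In 8 of them it was the same library, wild-type female replicate 8 of the Nckap1l line, at 95.2 CPM for Cr2, 55.3 for Ms4a1, 47.4 for Cd79a, 50.03 for Cd79b, 29.9 for Pax5, 79.6 for Cd22, 21.8 for Blk and 17.4 for Fcrla. It was also the wild-type library of block 1 with the least skin RNA (9.10 CPM). Without any 1 library of that line, this one included, the log2 fold change of Cr2 ran from -2.59 to -1.98 and 0 members were called by edgeR. The other was Pax5 in knockout female replicate 5 of that line, at 0.0621 CPM beside no count in the other 3, which is within 1 count.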

How the results depend on the processing

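No paired analysis was possible because the replicate numbers were given in accession order and pair no mice. The 9 genes stayed lower in the Nckap1l and Dock2 knockouts and higher in the Gpsm3 knockout under every alternative in which they could be fitted. Members called lower in the Nckap1l line (0) numbered 1 with DESeq2 and 7 in block 3 alone, and 0 when each library was left out in turn. In the Dock2 line (1) they numbered 3 with DESeq2, 0 with limma-voom, 0 in males only, 0 in females only, 9 without the libraries nearer the other genotype, and 1 to 3 when each library was left out, with 3 only without wild-type replicate 9 (Cr2, Fcer2a and Blk). Cr2 kept an adjusted p of 0.0011 to 0.030 by edgeR in those 42 fits. As the members were chosen on these contrasts, the counts and p-values here describe the fits and carry no test. Calls lost in one sex rest on fewer samples by construction, and the cause of the others was not tested. Signs turned in 13 of the fits of single members, none of them called. With the block as a covariate the sex difference in the Nckap1l line became -1.71 for Cr2, -1.51 for Ms4a1, -1.86 for Cd79a, -2.19 for Cd79b, -1.09 for Fcer2a, -2.63 for Pax5, -1.87 for Cd22, -1.38 for Blk and -2.02 for Fcrla. With limma-voom it was -0.031 for Cd22, and the interaction with sex was -0.21 for Blk in the Nckap1l line and 0.14 for Cr2 in the Dock2 line. Fcer2a in the Dok3 line was at 0.17 in block 2 alone. Pax5 and Fcrla could be fitted in 27 of the 31 fits that left out 1 library of the Nckap1l line. Without block 2, Cd79a, Pax5 and Fcrla, and without the 3 libraries Pax5 and Fcrla, were too low to be fitted in the Nckap1l line, and 3 counts limit what can be seen there.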

Other observations

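Some members kept counts in the Nckap1l knockouts in which Pax5 was at or near 0. In the 11 knockouts of blocks 1 and 3, Cd22 was at 0.585 to 5.22 CPM (median 1.38), and Fcer2a and Cr2 had medians of 1.29 and 1.17 CPM. The medians of Ms4a1, Cd79b, Cd79a, Blk and Fcrla were 0.525, 0.395, 0.246, 0.234 and 0.118 CPM. Blk reached 2.63 CPM, while Pax5 did not pass 0.115 CPM. Across these 11 libraries the mean level of neutrophil inflammation genes followed Blk (r = 0.91, permutation p = 0.0028, adjusted p = 0.025 over 9 members, rho = 0.66, p = 0.030, adjusted p = 0.14), with r = 0.81 without the 2 libraries farthest from the median of the neutrophil score. For Cd22 r was 0.72 (p = 0.014, adjusted p = 0.062, rho = 0.62, p = 0.047, adjusted p = 0.14) and for Cd79b 0.70 (p = 0.021, adjusted p = 0.062, rho = 0.72, p = 0.016, adjusted p = 0.14) by the permutation test, and without 2 libraries r fell to 0.40 and 0.32. The libraries were pooled over blocks 1 and 3 without centring on block, and the blocks differed in both measures. The median neutrophil score was 3.52 in block 1 knockouts and 0.18 in block 3 knockouts, and median Blk was 0.841 and 0.173 CPM. The permutation p-values therefore cannot tell a relation between libraries apart from a difference between blocks. In the 6 knockouts of block 1 alone r was 0.88, 0.97 and 0.96 for Blk, Cd22 and Cd79b. The other 6 members had r from -0.38 (Cr2) to 0.30 (Fcrla), with adjusted p of 0.57 or more by permutation. The 3 libraries highest in Blk (replicates 2, 4 and 5) also held 5251 to 6790 CPM of skin genes, whose part in the relation was not tested.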
